A study of Mus musculus with 24 samples.

Results

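The genes described here are 10 genes of the complement cascade and of the lipid-associated macrophage, the tumor macrophage that takes up and stores lipid: C1qa, C1qb, C1qc, C3, C3ar1, Trem2, Tyrobp, Gpnmb, Spp1 and Axl. They were chosen by name, and all 10 of the 16996 genes with values were found. Their RNA was measured in CD45+ cells enriched with magnetic beads from EMT6-hHER2 tumors, a mouse mammary carcinoma line made to carry the human HER2 receptor. Each of 24 wild-type female BALB/c mice, 10 to 12 weeks old, carried a tumor in the mammary fat pad. Once tumors measured 80 mm3, 6 mice were left untreated and 6 each were given trastuzumab (an antibody to HER2) at 20 mg/kg, T-DM1 (trastuzumab linked to a maytansinoid that blocks microtubules) at 15 mg/kg or T-PNU (trastuzumab linked to an anthracycline derivative) at 1 mg/kg, and tumors were taken on day 10. T-DM1 and T-PNU were given at different doses, so payload and dose cannot be told apart. By the paper, T-PNU tumors had shrunk by harvest, while trastuzumab and T-DM1 did not prevent growth. Treatment therefore cannot be told apart from tumor size and response at harvest either. Within the T-PNU group the paper also set high-responding samples apart from low-responding ones. The T-PNU samples are taken here as a single group. Each sample is named by its well, from A1 to H3. The values are log2 normalised expression, and all differences are on that log2 scale.

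C1q is the recognition molecule that starts the classical complement pathway, and in most tissues, tumors included, macrophages make it. It is built from chains A, B and C, which the neighbouring genes C1qa, C1qb and C1qc encode. C3 is the protein on which all complement pathways converge, and C3ar1 is the receptor for its fragment C3a on myeloid cells. TREM2 is a lipid-sensing receptor of macrophages that signals through the adaptor DAP12, the product of Tyrobp. Gpnmb, a lysosomal glycoprotein, and Spp1, the secreted phosphoprotein osteopontin, are widely used as marks of lipid-loaded macrophages. AXL is a receptor kinase for apoptotic cells coated with GAS6, and fibroblasts and tumor cells can express it as well as macrophages.

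The 3 C1q genes lay side by side on the minus strand of chromosome 4 within chr4:136880129-136898803 (GENCODE M21, GRCm38). Trem2 (chr17:48346401-48354147) and C3 (chr17:57203970-57228136) lie apart on chromosome 17, Tyrobp (chr7:30413760-30417585) and Axl (chr7:25757273-25788705) on chromosome 7, Gpnmb (chr6:49036546-49070929) and C3ar1 (chr6:122847138-122856161) on chromosome 6 and Spp1 (chr5:104435118-104441050) on chromosome 5. The C1q genes also moved together in these samples, so the bases upstream of their RefSeq start sites (GRCm38.p6) are shown for those with an entry, with those of Trem2, whose level followed them most closely among the other members tested. The stretches are printed 5′ to 3′ on the strand of the gene and leave out bases that GENCODE M21 places within the gene. Capitals mark matches, on either strand, to GAGGAA (a core of the macrophage factor PU.1), TGCTGA (an element of MAF-type factors), CATGTG (a core of MITF-type factors) and TGANTCA (the AP-1 element).

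C1qb (chr4:136886201-136886450, minus strand): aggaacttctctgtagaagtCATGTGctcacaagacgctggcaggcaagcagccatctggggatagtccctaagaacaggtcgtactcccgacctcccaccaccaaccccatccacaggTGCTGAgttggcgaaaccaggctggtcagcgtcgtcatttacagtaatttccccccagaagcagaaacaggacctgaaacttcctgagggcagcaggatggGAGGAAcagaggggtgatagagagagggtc

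C1qc (chr4:136893066-136893164, minus strand): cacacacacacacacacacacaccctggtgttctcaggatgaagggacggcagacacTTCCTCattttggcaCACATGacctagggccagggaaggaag

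Trem2 (chr17:48346151-48346400, plus strand): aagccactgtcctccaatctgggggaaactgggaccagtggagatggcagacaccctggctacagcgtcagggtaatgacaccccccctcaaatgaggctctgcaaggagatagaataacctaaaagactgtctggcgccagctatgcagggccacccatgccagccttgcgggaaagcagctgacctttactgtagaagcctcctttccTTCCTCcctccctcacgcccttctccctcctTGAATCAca

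In the 250 bases before the start site, C1qb held the PU.1 core, the MAF-type element and the MITF-type core on its own strand. C1qc held the PU.1 core and the MITF-type core on the other strand, and Trem2 held the PU.1 core on the other strand and the AP-1 element, which reads the same way on both. Of all 32851 promoter windows of that length, 23.3% held the PU.1 core, 16.1% the MAF-type element, 12.3% the MITF-type core and 6.75% the AP-1 element. The palindrome CACGTG, also bound by MITF-type factors, present in 6.02% of windows, was found in none of the members' windows, and the Gpnmb window held none of the 5 motifs. The matches shown did not overlap each other. RefSeq windows were found for 8 of the 10 members, all except C1qa and Tyrobp. These matches describe letters, and factor binding was not measured.

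All 10 members lay above the median of all genes, which was 8.80. Spp1 was the highest at a mean of 16.61 over the 24 samples, and Gpnmb the lowest at 9.90. Per kilobase of exon, Spp1 (15.89), C1qa (14.73), C1qb (14.61), Tyrobp (14.60) and C1qc (13.36) were the most abundant members on the log2 scale. C3ar1 (11.80), C3 (11.64), Axl (11.47), Trem2 (9.50) and Gpnmb (7.20) followed. The gate is for leukocytes, and the leukocyte markers (Ptprc, which encodes CD45, and others) averaged 14.26. The 6 macrophage markers, among them Adgre1, Csf1r, Cd68, Fcgr1 and Mertk, averaged 12.98, and the 6 fibroblast and stroma markers 12.23, with the collagen gene Col1a2 at 15.16. Transcripts typical of stromal cells were therefore present in these preparations, and levels of Spp1, C3 or Axl cannot be assigned to macrophages alone. By the paper, flow cytometry showed high purity of the enriched CD45+ cells. In such bulk samples, fewer cells of a type and less RNA per cell cannot be told apart.

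Untreated samples B1 and C1 stood apart from the other untreated samples, in opposite directions for most members. B1 was the lowest untreated sample for 9 of the 10 members, all but Spp1, and C1 the highest for 8, all but Spp1 and Axl. The study labelled 20 samples in its heat maps, all but B1, C1 and the trastuzumab samples E2 and B3, and results are given for both sets. Wells followed the treatment groups, and so did a running number in the sample labels, whose meaning is not stated. The untreated samples carried a run of numbers lower than, and well apart from, those of all treated samples. Plate position, and whatever that number stands for, cannot be told apart from treatment. The plot of levels shows each gene in each sample.

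**Figure D1:**
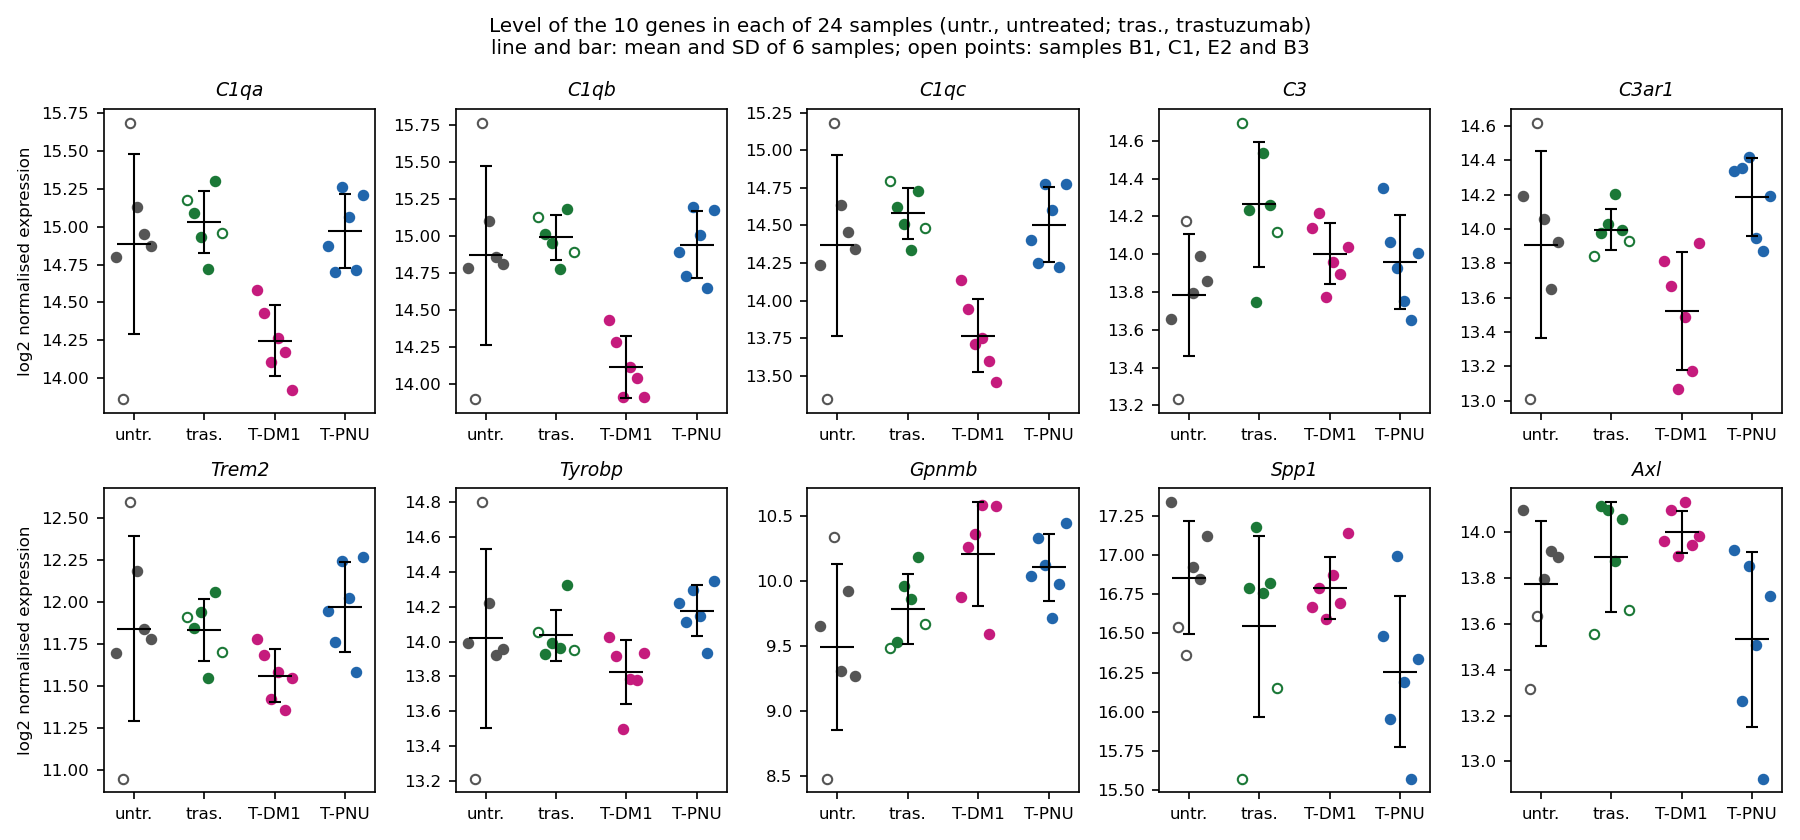
Log2 normalised expression (vertical axis) of the 10 genes in each sample, by group on the horizontal axis, with mean and SD of 6 samples; open points are B1, C1, E2 and B3. In the C1qa, C1qb and C1qc panels the 6 T-DM1 samples lie below every T-PNU and every trastuzumab sample, and untreated B1 and C1 lie at opposite ends. Such separation was not counted over all genes.

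All 3 C1q genes were lower after T-DM1 than after T-PNU, by a similar amount, and C1qb was also lower after T-DM1 than in untreated and in trastuzumab mice. C1qb ranged from 13.91 to 14.43 in the T-DM1 samples with a median of 14.08. In the T-PNU samples it ranged from 14.65 to 15.19 with a median of 14.95. In the trastuzumab samples C1qb ranged from 14.77 to 15.18 with a median of 14.98. The untreated range of C1qb was wider, 13.89 to 15.76 with a median of 14.83, owing to B1 at the bottom and C1 at the top. No T-DM1 sample reached the lowest T-PNU or trastuzumab sample, while the T-DM1 and untreated ranges overlapped through B1. The share of all genes with such separation is not known here.

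C1qa ranged from 13.93 to 14.58 after T-DM1 (median 14.22), 14.70 to 15.26 after T-PNU (median 14.97) and 14.72 to 15.30 after trastuzumab (median 15.02). C1qc ranged from 13.46 to 14.14 after T-DM1 (median 13.73), 14.22 to 14.78 after T-PNU (median 14.50) and 14.34 to 14.79 after trastuzumab (median 14.57). For both genes the T-DM1 range again lay wholly below the other treated groups. How many of all genes separate in this way was not counted, so the separation is not shown to be particular to the C1q genes. Untreated samples had C1qa between 13.86 and 15.69 (median 14.91) and C1qc between 13.35 and 15.18 (median 14.40), and in both cases B1 gave the lowest value.

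Between T-PNU and T-DM1, the conjugates of the same antibody with different payloads, C1qb was 0.83 ± 0.19 higher after T-PNU (log2 difference ± SE, n = 6 and 6, 1.77-fold, limma adjusted p = 0.00436). C1qc was 0.74 ± 0.20 higher (1.67-fold, adjusted p = 0.00873) and C1qa 0.72 ± 0.20 higher (1.65-fold, adjusted p = 0.00995). C3ar1 was 0.67 ± 0.19 higher (1.59-fold, adjusted p = 0.013), and Axl was the member that was lower, by -0.47 ± 0.15 (adjusted p = 0.0217). In all, 5 of the 10 members passed in this comparison, against 29.8% of all genes in either direction. By direction 4 members were higher, against 12.4% of all genes, and 1 lower, against 17.4%. The C1q calls held whichever single sample was left out, with adjusted p at most 0.0219 for C1qa, 0.0112 for C1qb and 0.0201 for C1qc. C3ar1 also passed in each of these 24 fits, with adjusted p at most 0.0351. Axl lost its call without T-PNU H1 or without T-PNU C2, where its adjusted p reached 0.0633.

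Trem2 and Tyrobp shifted by less in the same comparison. Trem2 ranged from 11.36 to 11.78 after T-DM1 (median 11.57) and from 11.58 to 12.27 after T-PNU (median 11.99), so the ranges overlapped. Its difference was 0.41 ± 0.18 (adjusted p = 0.0865). Tyrobp ranged from 13.50 to 14.03 after T-DM1 (median 13.85) and from 13.93 to 14.35 after T-PNU (median 14.18), a difference of 0.35 ± 0.16 (adjusted p = 0.0983). Both passed in the 20 samples, with Trem2 at 0.41 ± 0.12 (adjusted p = 0.0115) and Tyrobp at 0.35 ± 0.09 (adjusted p = 0.00668). The T-PNU and T-DM1 samples are the same in both sets, so the differences are equal, and the spread estimated over all groups became smaller without the 4 samples. Trem2 and Tyrobp also passed when untreated B1 alone or C1 alone was left out. With 20 samples 6 members were higher after T-PNU (the C1q genes, C3ar1, Trem2 and Tyrobp), against 19.8% of all genes, and 2 were lower (Spp1 and Axl), against 20.1%. That makes 8 of 10 in either direction, against 39.9% of all genes.

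Gpnmb and C3 did not pass in either set between the conjugates. Gpnmb differed by -0.10 (95% interval -0.58 to 0.37) and C3 by -0.04 (95% interval -0.36 to 0.27), so shifts of the size seen for C1qb lay outside both intervals. The lipid-associated genes therefore did not all move one way between the conjugates: Trem2, Tyrobp and the C1q genes had higher means after T-PNU, Spp1 and Axl lower means, and Gpnmb a similar mean. The plot of differences gives each estimate with its interval.

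**Figure D2:**
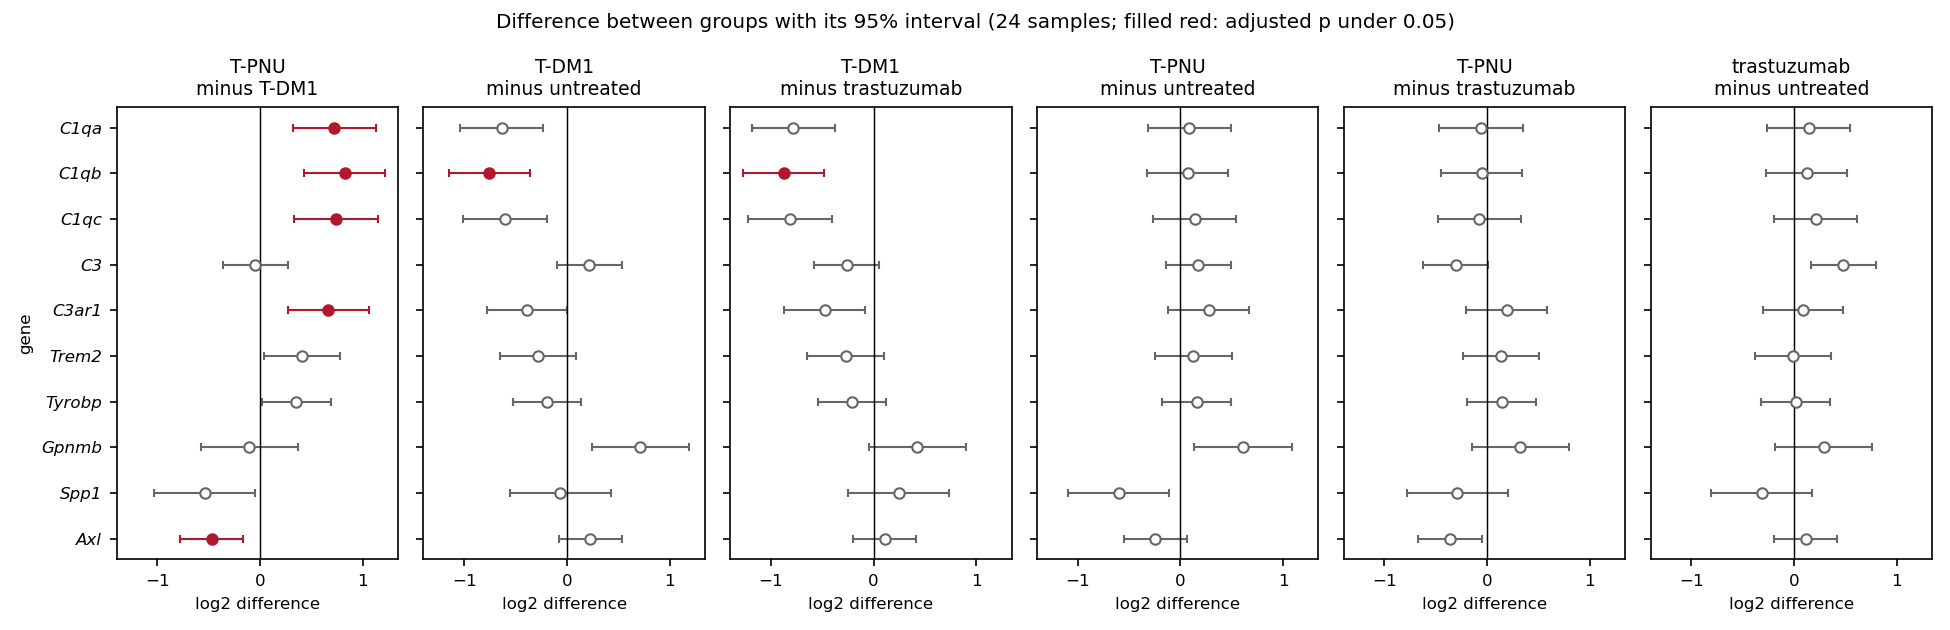
Log2 difference between groups (horizontal axis) for each gene (vertical axis) with its 95% interval in 6 comparisons of 24 samples; filled red points passed at adjusted p under 0.05. The 3 C1q genes lie to the right in T-PNU minus T-DM1 and to the left in both comparisons of T-DM1 with untreated and trastuzumab mice.

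Against untreated mice, C1qb was lower after T-DM1 by -0.75 ± 0.19 (0.593-fold, adjusted p = 0.0227). C1qa differed by -0.64 ± 0.20 (adjusted p = 0.0531) and C1qc by -0.60 ± 0.20 (adjusted p = 0.0654), both short of the threshold with all 24 samples. C1qb was thus the 1 member of 10 that passed, against 6.27% of all genes in either direction and 2.15% lower. Its call was lost without T-DM1 E3 (adjusted p = 0.062), and C1qa (adjusted p = 0.00459) and C1qc (adjusted p = 0.00557) passed without untreated B1. In the 20 samples all 3 C1q genes were lower, C1qa by -0.69 ± 0.14 (adjusted p = 0.0183), C1qb by -0.77 ± 0.12 (adjusted p = 0.00505) and C1qc by -0.65 ± 0.14 (adjusted p = 0.0218). The background in the 20 samples was 2.01% of all genes in either direction and 1.10% lower.

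Trastuzumab is the unconjugated antibody of T-DM1, and against it C1qb was lower after T-DM1 by -0.88 ± 0.19 (0.545-fold, adjusted p = 0.0306). C1qc differed by -0.81 ± 0.20 (adjusted p = 0.0539) and C1qa by -0.78 ± 0.20 (adjusted p = 0.0631). Only C1qb passed with 24 samples, against 0.647% of all genes in either direction and 0.435% lower, and its adjusted p lay between 0.00256 and 0.0858 over the fits that left out 1 sample. It no longer passed in 9 of those 24 fits, without E2, H2, A3, B3, D3, E3, F3, G3 or H3. With 20 samples all 3 C1q genes passed, with C1qb at -0.87 ± 0.12 (adjusted p = 0.000974), against 0.812% of all genes in either direction and 0.694% lower. The comparisons of T-DM1 with the other groups share the T-DM1 samples and are not independent of each other.

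No difference of the C1q genes from untreated mice was detected after T-PNU or trastuzumab. They differed from untreated by 0.07 to 0.14 after T-PNU and by 0.12 to 0.21 after trastuzumab, and none passed. For C1qb the 95% interval of T-PNU minus untreated ran from -0.32 to 0.47. In a test of any difference among the 4 groups, C1qa (adjusted p = 0.0228), C1qb (0.0113) and C1qc (0.021) passed with 24 samples, 3 of 10 members against 18.8% of all genes. With 20 samples every member except C3 passed, 9 of 10 against 40.8% of all genes.

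Gpnmb had its lowest mean in untreated tumors and its highest after T-DM1, where the C1q genes had their lowest. It ranged from 8.48 to 10.34 in untreated samples (median 9.48), 9.49 to 10.19 after trastuzumab (median 9.77), 9.59 to 10.59 after T-DM1 (median 10.31) and 9.72 to 10.45 after T-PNU (median 10.08). The groups overlapped, and 4 of the 6 T-DM1 samples exceeded 10.2. T-DM1 minus untreated was 0.72 ± 0.23 (1.64-fold, adjusted p = 0.0612) and T-PNU minus untreated 0.61 ± 0.23 (1.53-fold, adjusted p = 0.115). In the 20 samples the T-PNU difference was 0.57 ± 0.19 and passed (adjusted p = 0.0324), while that of T-DM1 was 0.67 ± 0.19 (adjusted p = 0.0739). The T-PNU difference of Gpnmb also passed when C1 alone was left out (0.78, adjusted p = 0.0192).

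Spp1 was lowest on average after T-PNU. It ranged from 15.57 to 17.00 after T-PNU (median 16.26), 16.59 to 17.14 after T-DM1 (median 16.74), 15.57 to 17.18 after trastuzumab (median 16.78) and 16.36 to 17.34 in untreated samples (median 16.89). T-PNU C2 and trastuzumab E2 were the lowest samples, and E2 and B3 were the lowest of the trastuzumab group. With all 24 samples no Spp1 difference passed, T-PNU minus untreated being -0.60 ± 0.24 (adjusted p = 0.133) and T-PNU minus T-DM1 -0.54 ± 0.24 (adjusted p = 0.0884), which passed without T-PNU A2 (-0.69, adjusted p = 0.03). In the 20 samples Spp1 was lower after T-PNU than in untreated mice by -0.80 ± 0.20 (adjusted p = 0.00806), than after T-DM1 by -0.54 ± 0.17 (adjusted p = 0.0204) and than after trastuzumab by -0.63 ± 0.20 (adjusted p = 0.0264).

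Axl, like Spp1, had its lowest mean after T-PNU. It ranged from 12.92 to 13.92 after T-PNU (median 13.62), 13.90 to 14.13 after T-DM1 (median 13.97), 13.56 to 14.12 after trastuzumab (median 13.97) and 13.31 to 14.10 in untreated samples (median 13.84). T-PNU C2 and H1 were the lowest of all samples, and T-DM1 was the tightest group, with an SD of 0.09. With all 24 samples T-PNU minus untreated was -0.24 ± 0.15 (adjusted p = 0.294) and T-PNU minus trastuzumab -0.36 ± 0.15 (adjusted p = 0.209), and neither passed. In the 20 samples Axl was lower after T-PNU than in untreated mice by -0.39 ± 0.14 (adjusted p = 0.0414) and than after trastuzumab by -0.50 ± 0.14 (adjusted p = 0.0189).

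Counted over members, T-PNU minus untreated gave 0 of 10 with 24 samples, against 0.188% of all genes, and 3 with 20 samples (Gpnmb higher, Spp1 and Axl lower), against 31.1%. Before adjustment, 2 members were under 0.05 with 24 samples. T-PNU minus trastuzumab gave 0 of 10, against 0.00588% of all genes, with 1 member under 0.05 before adjustment, and 2 with 20 samples (Spp1 and Axl lower), against 28.0%. Trastuzumab minus untreated gave 0 of 10 by limma in both sets, against 0.259% of all genes with 24 samples and 0% with 20, and 1 member under 0.05 before adjustment in each set.

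C3 and its receptor gene C3ar1 did not share a pattern. C3 ranged from 13.23 to 14.18 in untreated samples (median 13.83), 13.75 to 14.70 after trastuzumab (median 14.25), 13.77 to 14.22 after T-DM1 (median 14.00) and 13.65 to 14.35 after T-PNU (median 13.97). Its largest difference was trastuzumab minus untreated at 0.48 ± 0.15 (1.39-fold, adjusted p = 0.232), which did not pass. C3ar1 ranged from 13.07 to 13.92 after T-DM1 (median 13.58), 13.87 to 14.42 after T-PNU (median 14.26), 13.84 to 14.20 after trastuzumab (median 13.99) and 13.01 to 14.62 in untreated samples (median 13.99). The T-DM1 and T-PNU ranges of C3ar1 met only between T-DM1 H3 at 13.92 and T-PNU C2 at 13.87.

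Across samples, after the mean of each group was subtracted, the 3 C1q genes rose and fell almost as 1 unit. Pearson's r was 0.99 for C1qa with C1qb, 0.99 for C1qa with C1qc and 0.98 for C1qb with C1qc (n = 24, permutation p = 1e-05 each, the smallest that 100000 permutations can give, adjusted p = 2e-05 over 10 pairs). Spearman's rho was 0.96 for each pair (permutation p = 1e-05, adjusted p = 2.5e-05). Leaving out the 2 samples farthest from the median of the gene named first (B1 and H3 for C1qa, B1 and C1 for C1qb) left r at 0.98, 0.98 and 0.96. Trem2 followed C1qa with r = 0.95 and rho = 0.87 (permutation p = 1e-05 for both, adjusted p = 2e-05 and 2.5e-05), and r was 0.86 without B1 and C1.

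Trem2 and Tyrobp, receptor and adaptor, were correlated with r = 0.92 (permutation p = 1e-05, adjusted p = 2e-05) and rho = 0.81 (p = 2e-05, adjusted p = 4e-05), with r at 0.78 without B1 and C1. Their log2 difference, Trem2 minus Tyrobp, had group means of -2.17 in untreated, -2.20 in trastuzumab, -2.26 in T-DM1 and -2.21 in T-PNU samples. Its SD over all 24 samples was 0.12, against 0.34 for Trem2 and 0.30 for Tyrobp.

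C3 and C3ar1 had r = 0.59 (permutation p = 0.00353, adjusted p = 0.00588) and rho = 0.50 (p = 0.0174, adjusted p = 0.0289), with r = 0.53 without B1 and E2, but r was 0.44 in the 20 samples (adjusted p = 0.0551) and 0.31 without B1 and C1 (adjusted p = 0.178). Trem2 and Gpnmb had r = 0.60 (permutation p = 0.026, adjusted p = 0.0372) but rho = 0.27 (p = 0.248, adjusted p = 0.309), and r fell to 0.10 without B1 and C1, so that relation rests on those samples. The remaining pairs did not pass by permutation: Gpnmb with Spp1 (r = 0.20, rho = 0.28, adjusted p = 0.402 and 0.297), C1qa with Spp1 (r = 0.03, rho = 0.03, adjusted p = 0.887 and 0.91) and Axl with C3 (r = 0.22, rho = 0.09, adjusted p = 0.402 and 0.781). Without the 2 farthest samples r was 0.16, -0.08 and 0.11 for these pairs, with permutation p = 0.46, 0.741 and 0.684. The map of correlations shows the members in the order of their roles.

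**Figure D3:**
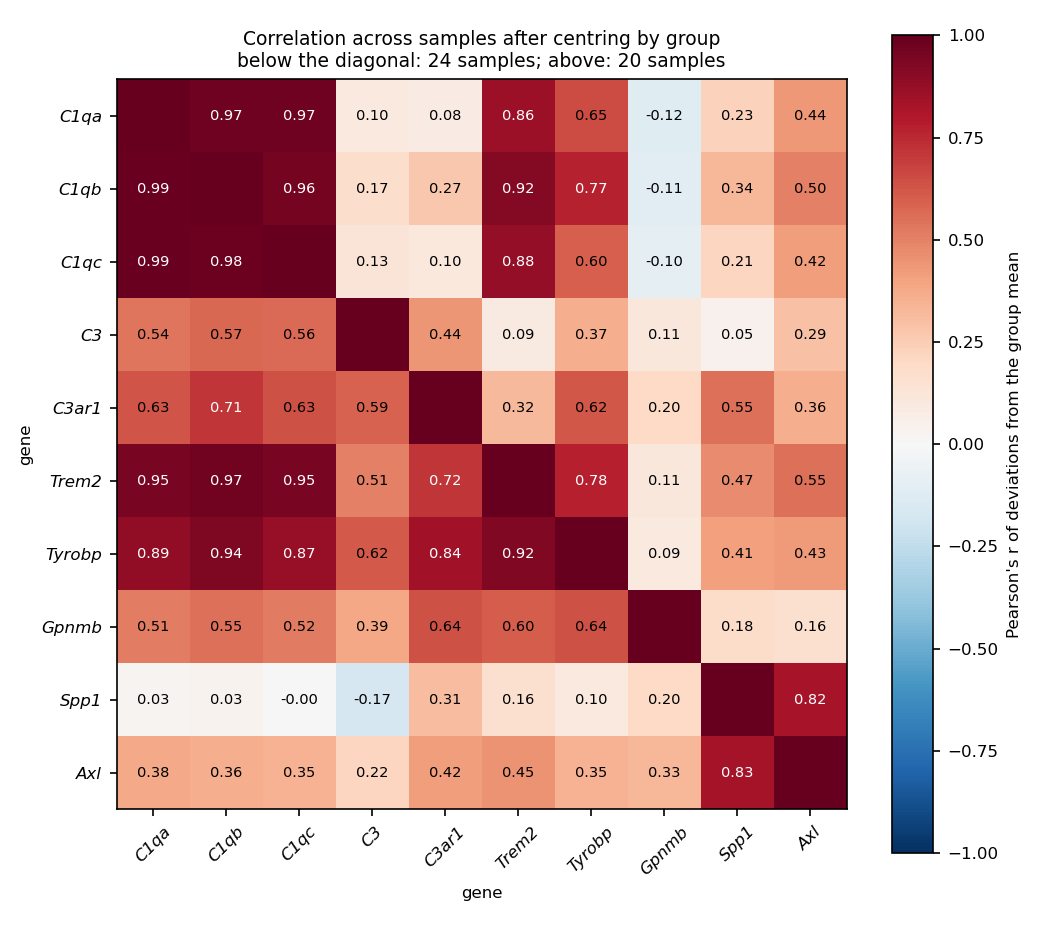
Pearson's r between the 10 genes (both axes) of deviations from the group mean, with 24 samples below the diagonal and the 20 labelled samples above it; color runs from -1 to 1. The C1q genes, Trem2 and Tyrobp form a block of high values on both sides of the diagonal, Spp1 and Axl pair with each other, and Gpnmb is near 0 with the C1q genes in the 20 samples.

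Genes whose deviations from the group mean were most like those of each member are given as a description over 24 samples, which share the depth and cell make-up of their libraries. For the mean of the C1q genes they were Gna12 (r = 0.95), Cmtm7, Pld4, Mfsd12 and Atox1 (0.95). Trem2 was most like Cfp (0.97), which encodes the complement factor properdin, then Cmtm7, Atox1, Ctsz and Aldh3b1. Tyrobp was most like Cd300c2 (0.97), Cndp2, Hexa, Pld4 and Lat2, and C3ar1 like Fcer1g (0.97), the Fc receptor common chain, then Cd300ld, Sirpb1a, Lilrb4a and Ugt1a6a. C3 was most like Tnfaip2 (0.95), Dram1, Nos2, Arrdc4 and Aoah.

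Gpnmb had looser neighbours, led by Plin2 (0.83), which coats lipid droplets, then Fam63a, Gas6, Pf4 and Mmp19. Spp1 was most like Sccpdh (0.95), Edil3, Tusc3, Fkbp1a and Pls3, and Axl like Cyb5r1 (0.98), Crtap, Arfgap3, Specc1 and Gss. None of the 5 genes named for Spp1 or for Axl was named for a C1q gene or for Trem2. For the gene named first in each case, r in the 20 samples was 0.84 for the C1q mean with Gna12, 0.64 for Gpnmb with Plin2, 0.92 for Spp1 with Sccpdh and 0.97 for Axl with Cyb5r1. The order differed in the 20 samples, where Atox1 was nearer to the C1q mean (0.88) than Gna12, and where Pls3 and Sccpdh were both at 0.92 with Spp1.

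Levels of macrophage markers ran with those of the C1q genes, less closely without the samples outside the heat maps. After centring by group, r with the mean of the macrophage markers was 0.82 to 0.89 for the 3 genes (n = 24), and 0.40 to 0.58 in the 20 samples. The mean of these markers ranged from 12.38 to 12.99 after T-DM1, 12.94 to 13.43 after T-PNU, 12.98 to 13.15 after trastuzumab and 11.98 to 13.79 in untreated samples. Of the 6 markers, Adgre1 (0.86 ± 0.22, adjusted p = 0.00645) and Mertk (0.93 ± 0.21, adjusted p = 0.00411) were higher after T-PNU than after T-DM1, and no marker was lower. No macrophage marker passed between T-DM1 and untreated mice, against 6.27% of all genes, and their median difference was -0.15 against -0.02 for all genes. With the mean of the macrophage markers as a covariate, C1qa, C1qb and C1qc were all lower after T-DM1 than in untreated mice, by -0.48 ± 0.12 (adjusted p = 0.015), -0.59 ± 0.09 (adjusted p = 0.00096) and -0.45 ± 0.11 (adjusted p = 0.0181). Between T-PNU and T-DM1 that fit left C1qb 0.33 ± 0.11 higher (adjusted p = 0.0276), while C1qa (0.25 ± 0.14, adjusted p = 0.151) and C1qc (0.26 ± 0.13, adjusted p = 0.127) no longer passed, nor did C3ar1 (0.15 ± 0.10, adjusted p = 0.212).

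In the same fit Gpnmb was higher after T-DM1 than in untreated mice, by 0.86 ± 0.18 (adjusted p = 0.00727), and lower after T-PNU than after T-DM1, by -0.55 ± 0.21 (adjusted p = 0.0489). C3 was lower after T-PNU than after T-DM1 by -0.36 ± 0.13 (adjusted p = 0.0432), and Axl by -0.61 ± 0.17 (adjusted p = 0.0132). Trem2 and Tyrobp, set against macrophage markers, differed by -0.055 ± 0.11 (adjusted p = 0.71) and -0.093 ± 0.07 (adjusted p = 0.309) between the conjugates, the opposite sign from the fit without the covariate. This covariate is itself measured in the same samples and is not independent of the members.

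Levels of Axl and Spp1 ran with those of fibroblast and stroma markers and against those of lymphocyte markers. After centring by group, r with the mean of the stroma markers was 0.88 for Axl and 0.75 for Spp1 (n = 24, a description across libraries of mixed cells), and 0.91 and 0.66 in the 20 samples. With the mean of 6 T cell markers r was -0.85 for Spp1 and -0.85 for Axl, and -0.85 and -0.73 in the 20 samples. With B cell markers it was -0.76 for both. The mean of the T cell markers ranged from 9.25 to 11.71 after T-PNU, 8.21 to 10.52 after T-DM1, 8.29 to 10.96 after trastuzumab and 8.09 to 11.46 in untreated samples, so the groups overlapped, and T-PNU C2 was the highest sample. The part of lymphocyte RNA in these results was not tested.

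The mean of the stroma markers ranged from 12.79 to 13.09 after T-DM1 and from 10.71 to 12.17 after T-PNU, with no overlap, and from 11.94 to 12.75 after trastuzumab and 11.21 to 12.44 in untreated samples. All 6 markers were lower after T-PNU than after T-DM1, with a median difference of -1.37 against 0.03 for all genes, and Col1a1, Col3a1 and Dcn were higher after T-DM1 than in untreated mice. T-PNU C2 had the lowest level of stroma markers at 10.71 and the lowest Axl. A further fit used 1 covariate, the mean of the stroma and the tumor marker levels. The 2 lists differed in opposite directions, stroma averaging 12.93 after T-DM1 and 11.63 after T-PNU, and tumor 9.11 and 9.26. In that fit the Axl difference between T-PNU and T-DM1 was -0.06 ± 0.14 and the Spp1 difference -0.05 ± 0.27, while those of C1qa, C1qb and C1qc were 0.79 ± 0.26, 0.84 ± 0.25 and 0.79 ± 0.26. No member passed between these groups in that fit, and no gene of the whole table did. Because the stroma levels of the 2 groups did not overlap, the fit cannot fully separate marker level from treatment. The part of these transcripts in the results was otherwise not tested.

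**Figure D4:**
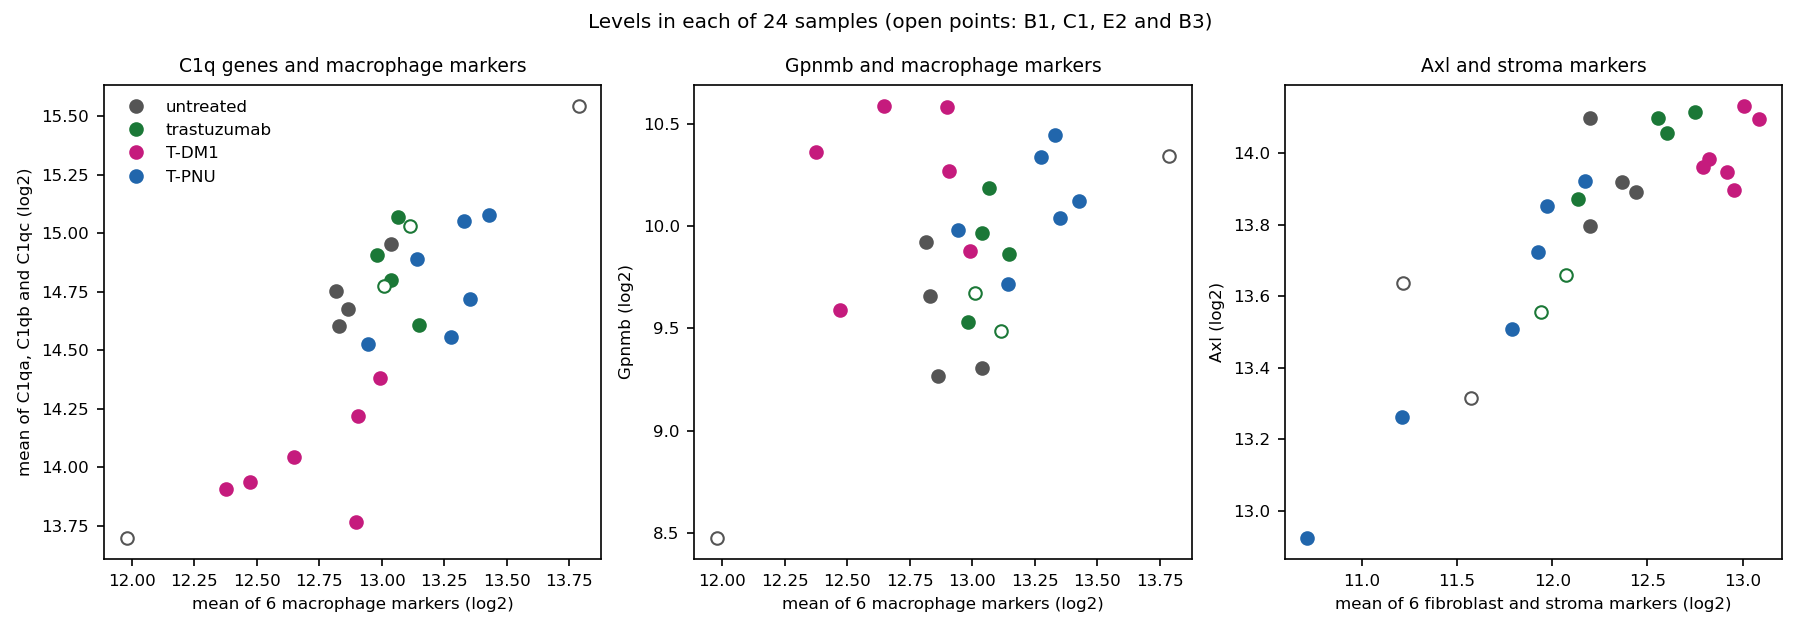
Mean of C1qa, C1qb and C1qc and level of Gpnmb against the mean of 6 macrophage markers, and Axl against the mean of 6 fibroblast and stroma markers (log2, 1 point per sample, open points B1, C1, E2 and B3). The T-DM1 samples sit low in C1q, at 13.77 to 14.38, and high in stroma markers, at 12.79 to 13.09.

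Beyond the 10 members, other genes of the same pathways are described between the conjugates, the comparison with the highest count of genes that passed over the whole table. Counts below are of genes that passed in T-PNU minus T-DM1 with 24 samples, where 12.4% of all genes were higher and 17.4% lower, 29.8% in all, and no list is set apart from that background by a test. Of 24 other genes of classical complement and its regulators, 3 were higher (Cr1l, C4b and Cd59a) and 1 lower (C1ra), with a median difference of 0.27. Cr1l, a membrane regulator that restrains C3 activation, was 0.38 ± 0.08 higher (adjusted p = 0.0031). C1ra, which encodes a protease that C1q carries, was lower by -0.49 ± 0.18 (adjusted p = 0.0423), opposite in direction to C1qa, C1qb and C1qc. The largest difference of that list was that of Cr2 (1.17 ± 0.86, adjusted p = 0.294), which did not pass.

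Of 30 other lipid-associated macrophage genes, 10 were higher after T-PNU and 3 lower. The higher genes were those of lipid uptake and efflux (Cd36, Lpl, Abca1 and Abcg1), lipid carriage and storage (Apoe, Apoc1, Fabp4 and Plin2) and the lysosome (Lipa and Ctsb). Cd36, a scavenger receptor for lipid, was 1.07 ± 0.22 higher (adjusted p = 0.00241), and Abca1, which exports cholesterol, 0.72 ± 0.14 higher (adjusted p = 0.00223). Cd9, Cd63 and Lgals1 were lower, Lgals1 by -0.69 ± 0.19 (adjusted p = 0.00963). None of the 30 passed between T-DM1 and untreated mice with 24 samples, against 6.27% of all genes. Mmp12 alone passed, lower, with 20, against 2.01% of all genes.

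Of 29 genes of TREM2 and DAP12 signalling, 10 were higher and none lower, with a median difference of 0.42. They included the kinases Syk (0.33 ± 0.11, adjusted p = 0.0253) and Btk (0.61 ± 0.13, adjusted p = 0.00335) and the phosphoinositide kinase gene Pik3cg (0.65 ± 0.12, adjusted p = 0.00184). Several of these genes are used in many leukocytes, and 5 of the 6 general leukocyte markers were higher too, with a median of 0.42. Siglech had the highest difference of the list, 0.68 ± 0.29 (adjusted p = 0.0809), and Plcg2 the lowest, -0.10 ± 0.08 (adjusted p = 0.324), and neither passed. Pik3cg (-0.54 ± 0.12, adjusted p = 0.0144) and Adam10, a protease that sheds TREM2 (-0.43 ± 0.09, adjusted p = 0.00789), were lower after T-DM1 than in untreated mice.

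Of 20 other genes of the TAM receptor family and apoptotic cell clearance, 6 were higher and 3 lower. Mertk, the sister receptor of Axl, was higher while Axl and Tyro3, the remaining receptor, were lower, Tyro3 by -0.77 ± 0.18 (adjusted p = 0.00444). Both ligand genes were higher, Gas6 by 0.96 ± 0.28 (adjusted p = 0.0141) and Pros1 by 0.97 ± 0.18 (adjusted p = 0.00161). Megf10, an engulfment receptor, was lower by -1.44 ± 0.28 (adjusted p = 0.00196) and Mfge8, a bridge to apoptotic cells, by -0.88 ± 0.16 (adjusted p = 0.00162). Pros1 was lower after T-DM1 than in untreated mice (-0.69 ± 0.18, adjusted p = 0.0253) and than after trastuzumab (-0.78 ± 0.18, adjusted p = 0.0447).

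Of 14 osteopontin receptors and GPNMB partners, 3 were higher (Itga4, Itga9 and Mitf) and 1 lower, Itga5 at -0.62 ± 0.21 (adjusted p = 0.0307). Itga4, an integrin chain that binds osteopontin, was 0.86 ± 0.18 higher (adjusted p = 0.0031), and the receptor gene Cd44 differed by -0.10 ± 0.16 (adjusted p = 0.652). Of 18 macrophage transcription factors, 4 were higher (Maf, Irf8, Cebpa and Mitf) and 2 lower (Bhlhe40 and Id3). Maf was 0.76 ± 0.17 higher (adjusted p = 0.00395) and Id3 lower by -0.42 ± 0.14 (adjusted p = 0.0314), while Spi1, which encodes PU.1, differed by 0.10 ± 0.15 (adjusted p = 0.623).

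Of 15 resident-like macrophage genes, 7 were higher and none lower. Sepp1, which encodes a secreted selenoprotein, was 1.27 ± 0.25 higher (adjusted p = 0.002), the chemokine gene Ccl8 1.23 ± 0.30 (adjusted p = 0.00574), the mannose receptor gene Mrc1 0.84 ± 0.27 (adjusted p = 0.0256) and the folate receptor gene Folr2 0.82 ± 0.26 (adjusted p = 0.0219). Cd163 was not among them at -0.14 ± 0.42 (adjusted p = 0.819). Among markers of other cells, 5 of 5 for NK cells, 4 of 6 for endothelium, 2 of 6 for dendritic cells and 1 of 6 for neutrophils were higher, and none of those lists had a lower gene. No T cell or B cell marker passed, of 6 each, 1 of 6 monocyte markers was lower, and of 6 epithelial markers of the tumor 2 were higher and 1 lower. The plot of shares by list sets these counts beside the comparisons of T-DM1 with untreated and trastuzumab mice. Few genes of any list passed there, where 6.27% and 0.647% of all genes did.

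**Figure D5:**
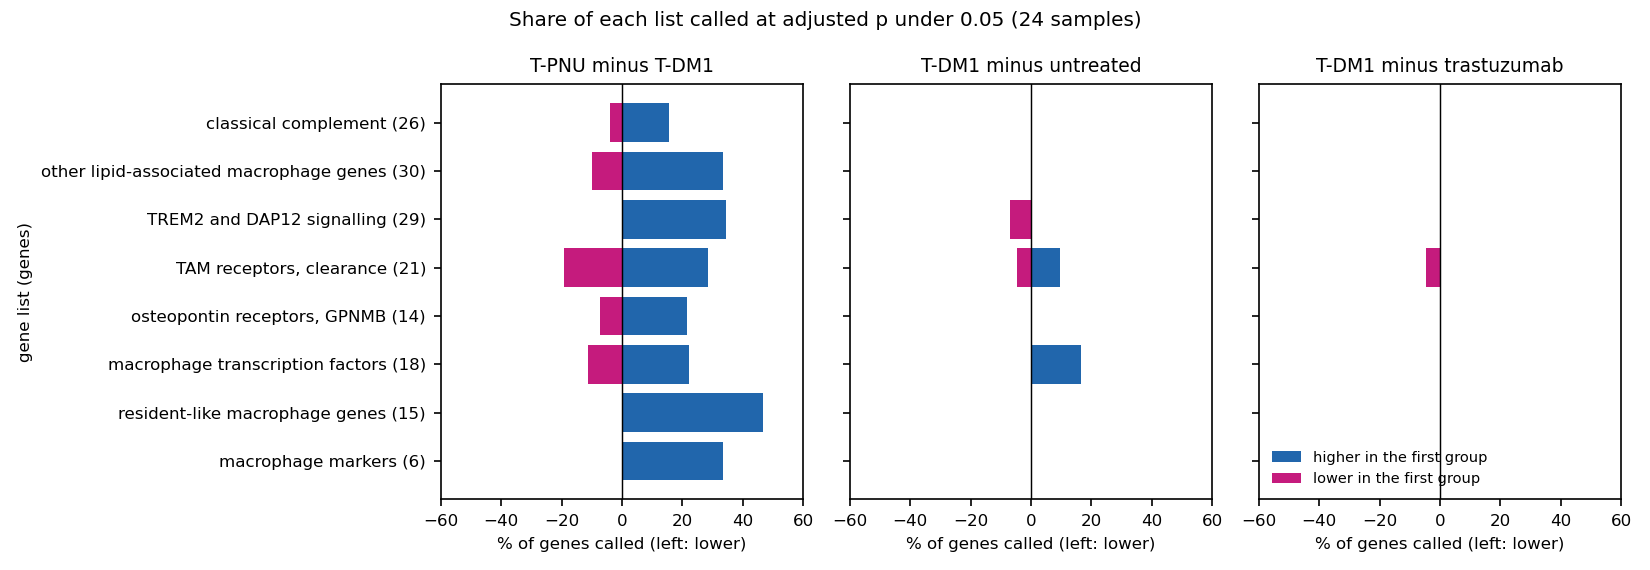
Share of the genes of each list (vertical axis, number of genes in brackets) that passed at adjusted p under 0.05 with 24 samples, higher to the right and lower to the left (horizontal axis, percent), in 3 comparisons. In T-PNU minus T-DM1, 10 of 29 genes of TREM2 and DAP12 signalling and 7 of 15 resident-like macrophage genes were higher, with none lower in either list.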

How the data were processed

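RNA of CD45+ cells from 24 tumors, 1 library per mouse, was sequenced by the authors, who mapped reads with STAR 2.4.2a, counted them by strand with featureCounts (Subread 1.5.0) and removed genes of low average count. The deposited values are log2 expression normalised for library size; the transformation is not given in the sources used here. Such values can be shrunken, so that differences may be smaller than in counts. The notes of the submitters name mm10, and positions are from GENCODE M21. Counts were not used, sequencing depth is unknown, and no interval from counting is given. Whether samples of 1 group shared a cage or day of processing is not stated, and p-values measure the spread between these mice.

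Groups came from the agent each label gives, and columns were matched to samples by title. All 24 samples and 4 groups entered 1 fit with limma 3.58.1 in R 4.3.3 (linear model, empirical Bayes with trend), with Benjamini-Hochberg adjustment over 16996 genes and a threshold of 0.05. Correlations used deviations from group means and 100000 permutations within groups (Python 3.11.15, scipy 1.17.1). Genes described were the members and, in each list, those with the smallest p and the largest and smallest difference, with further list members that passed or are well known for the role stated chosen after their values were seen. A few genes that this rule names are not reported here. The 5 genes most like a member had the highest Pearson's r among 8408 genes above the median with a symbol. The members and lists were chosen with earlier results of these data known. Both kinds of script were tested on simulated data.

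Alternatives were the 20 samples of the heat maps, quantile normalization, a filter on low genes, sample weights, a fit of each pair of groups alone, no trend, marker covariates, no centring and leaving out each sample.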

Additional observations from a re-analysis of the deposited data

Results flagged for a closer look

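Of 40 sets of 6 values, 10 members in 4 groups, 1 held a sample far from the rest of its group. Tyrobp in trastuzumab sample A3 was 14.32, and the other 5 trastuzumab samples lay between 13.93 and 14.06, so the gap took 0.674 of the range, above the 95% limit of Dixon's test. Chance flags about 1 in 20 such sets. The test sets the gap of 1 sample against the whole range, so far samples at opposite ends of a set can hide each other. Untreated B1 and C1 lay at opposite ends for most members, and the test flagged neither. Without A3 no count of members called changed in the comparisons of trastuzumab with untreated or with T-PNU, and that of T-DM1 minus trastuzumab went from 1 to 0. This change was not particular to A3, because the latter count changed in 13 of the 24 fits that left out 1 sample. Shares of all genes in those fits are not given here.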

How the results depend on the processing

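The number of members that passed at adjusted p under 0.05 varied with the samples used, their weights and marker covariates, as did the share of all genes. Depth is unknown, and precision rests on 6 mice a group. The order of comparisons below is T-PNU minus untreated, T-DM1 minus untreated, T-PNU minus T-DM1, T-PNU minus trastuzumab, T-DM1 minus trastuzumab and any difference among the groups, with 0, 1, 5, 0, 1 and 3 members of 10 in all 24 samples. The shares of all genes in that order were 0.188%, 6.27%, 29.8%, 0.00588%, 0.647% and 18.8%. The counts were 3, 3, 8, 2, 3 and 9 in the 20 heat map samples, against 31.1%, 2.01%, 39.9%, 28.0%, 0.812% and 40.8% of all genes. With sample weights, which were 0.215 for B1 and 0.289 for C1, they were 2, 6, 8, 1, 4 and 9. The shares of all genes with weights were 34.3%, 19.4%, 44.6%, 13.3%, 7.25% and 50.9%. Without B1 and C1, an alternative added after seeing the data, the counts were 2, 3, 7, 0, 3 and 8. The shares of all genes there were 25.4%, 2.02%, 37.5%, 2.18%, 3.35% and 32.3%. Quantile normalization gave 2 in T-DM1 minus untreated and 3 in T-DM1 minus trastuzumab, genes above the median 2 and 0, and the fit of only the 2 groups 0 and 3. The shares of all genes tested were 5.97% and 0.5%, 8.81% and 0.0471%, and 3.65% and 2.49%. The macrophage covariate gave 4 in T-DM1 minus untreated, 2 in T-DM1 minus trastuzumab and 6 among the groups, against 10.5%, 0.93% and 20.2% of all genes. The stroma and tumor covariate gave 0 in T-DM1 minus untreated, T-PNU minus T-DM1, T-DM1 minus trastuzumab and among the groups. The shares of all genes there were 0.112%, 0%, 0.147% and 2.68%. Trastuzumab minus untreated stayed at 0 in every setting run. Apart from the fits that left out 1 sample, 0% to 1.15% of all genes passed there, so 0 of 10 members lay near that share.

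Leaving out 1 sample at a time gave 0 to 1, 0 to 4, 4 to 7, 0 to 0, 0 to 3 and 2 to 6 members, with T-DM1 minus untreated at 4 without B1 and at 0 without E3, 2 without C1, E1 or G3, and T-DM1 minus trastuzumab at 3 without B1. Shares of all genes in those fits are not given here, so these counts are not set against a background. The C1q differences between T-DM1 and the other groups kept their sign in all settings run. With the macrophage covariate Trem2 (-0.055) and Tyrobp (-0.093) reversed between T-PNU and T-DM1. Among 10 pairs, 7 correlations passed, and 6 to 7 when 1 sample was left out; Trem2 with Gpnmb lost its call without B1, C1, F1, A3, G3 or D2. The cause of these changes was not tested. No paired analysis was possible because samples carry well names and no shared replicate numbers.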
